A study of Mus musculus with 13 samples.

Results

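The genes described here are 44 transcripts of myeloid cells, of 54532 genes counted, read in sorted mouse natural killer (NK) cells. They were picked by name from the annotation of the count files, and measured values were used in no step of the rule, but the names were chosen with earlier results of these data known. By the cells they are known from, 14 were taken as monocyte and macrophage genes, 12 as neutrophil genes and 9 as Kupffer cell genes. A further 4 were inflammatory mediators, 2 were transcription factors of myeloid cells and 3 were genes used by several cell types. The study sequenced RNA of LrNK cells, the liver-resident NK cells, and cNK cells, the conventional NK cells, to ask what CD8+ T cells do for the maturation of the liver cells. LrNK cells came from liver lymphocytes and cNK cells from splenocytes, so that cell type and organ cannot be told apart. All mice were C57BL/6J, 8 to 10 weeks old, and either wild type (WT) or labelled CD8KO, the label the submitters gave to mice meant to lack CD8. Cells were sorted on a flow cytometer before RNA extraction, and a library is therefore a bulk sample in which a smaller number of cells of a type and less RNA per cell cannot be told apart.

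Monocytes are made in the bone marrow, circulate in blood and pass through the sinusoids of the liver, where some become macrophages. Kupffer cells are the macrophages that live in those sinusoids, and in mice they are known by the receptors Clec4f, Timd4, Vsig4 and Marco. Neutrophils are short-lived granulocytes that store their antimicrobial proteins in granules made at successive steps of maturation, so that granule transcripts mark young cells and receptors such as Cxcr2 mark mature ones. Splenic macrophages share Csf1r, Adgre1 and the complement C1q genes with Kupffer cells but lack Clec4f.

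The 13 libraries were 4 of LrNK WT, 3 of LrNK labelled CD8KO, 3 of cNK WT and 3 of cNK labelled CD8KO, with 30578631 to 72716020 counts each. In 2 pairs the libraries agreed far more closely than any others of their group (LrNK WT 2 with 4, LrNK labelled CD8KO 2 with 3) and each pair was summed and counted as 1 sample, which left 3, 2, 3 and 3 samples. LrNK WT 1, LrNK WT 3 and LrNK labelled CD8KO 1 stood apart with 13917 to 15797 detected genes, against 19896 to 22921 in the other libraries, so results are also given without them. The labels do not say that samples came from separate animals, and p-values measure the spread between these samples. Cd8a went against its label: scaled to 1000000 counts per library (CPM), it was at 18.5 to 22.4 in the WT LrNK samples and at 41.6 to 45.1 in those labelled CD8KO, and at 0.561 to 0.578 CPM in the WT cNK samples and 85.9 to 109 CPM in those labelled CD8KO. NK identity was present in every sample, with Ncr1, an activating receptor of NK cells, at 427 to 852 CPM in LrNK and 1174 to 1324 CPM in cNK, and Eomes, a factor that cNK cells need, at 0.494 to 9.62 CPM against 640 to 704 CPM.

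Myeloid transcripts were a minor share of every library and a larger one in LrNK than in cNK. Together the 44 genes took 0.472, 0.207 and 0.753 percent of all counts in the LrNK WT samples, in the order 1, 2+4 and 3 that is kept below. They took 1.57 and 0.631 percent in LrNK labelled CD8KO, in the order 1 and 2+3. In cNK the share lay between 0.0405 and 0.0597 percent over the 6 samples, so that no LrNK sample overlapped with any cNK sample. Lyz2, the lysozyme gene of macrophages and granulocytes, supplied 39.1, 25.1 and 46.9 percent of the summed CPM of the 44 genes in the WT LrNK samples and 47.05 and 31.1 percent in those labelled CD8KO, against 2.52 to 4.67 percent in cNK. Of the 44 genes, 35 to 44 had a count in an LrNK sample and 30 to 37 in a cNK sample.

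**Figure D1:**
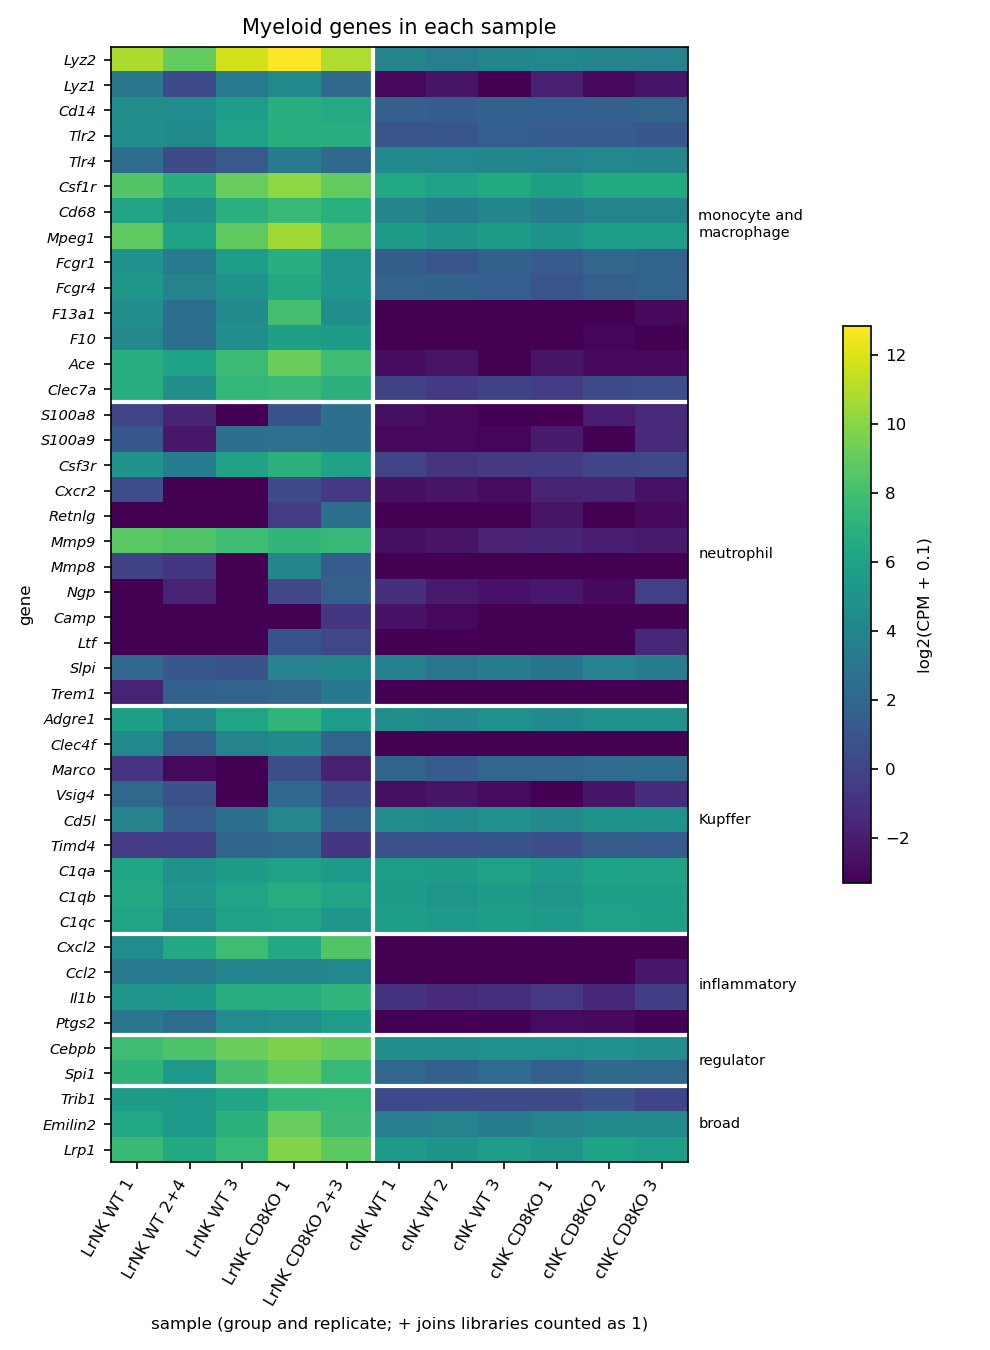
Level of each of the 44 genes (rows, by group of cell type) in the 11 samples (columns), as log2 of CPM plus 0.1, where yellow is high and dark blue is low. Most rows are brighter in the 5 LrNK samples left of the white line, and the rows that do not differ that way are mostly in the Kupffer block and include Tlr4, Slpi, Marco, Cd5l and the 3 C1q genes.

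Between LrNK WT and cNK WT, myeloid genes divided by cell type: monocyte, macrophage and inflammatory genes were far higher in LrNK, and Kupffer genes as a group were not. With edgeR's quasi-likelihood test on these samples, 26 of the 35 members that passed the filter on low counts rose at a Benjamini-Hochberg adjusted p under 0.05 over all genes, and 2 fell. Of all 16456 genes tested, 10.9 percent rose and 9.83 percent fell. The median log2 change was 3.94 over the members tested and -0.0814 over all genes tested. By group, 13 of 14 monocyte and macrophage genes, 3 of 4 tested neutrophil genes, 1 of 8 tested Kupffer genes, 4 of 4 inflammatory genes, 2 of 2 regulators and 3 of 3 broad genes were called higher. Of the members tested, 7 had 0 counts in cNK WT (F13a1, F10, Trem1, Clec4f, Cxcl2, Ccl2 and Ptgs2). Lyz1, Ace and Mmp9 had a few counts there but, like these 7, did not pass the filter in the fit of the cNK samples alone. All of these passed through LrNK alone and had to differ, so their calls and p-values, here and below, are a description. The median was still 3.94 with the 7 genes of 0 counts at the lower bound of their fold, and the other 3 were not bounded. The 9 members not tested (S100a8, S100a9, Cxcr2, Retnlg, Mmp8, Ngp, Camp, Ltf and Vsig4) are given by level. With only the libraries of many detected genes, LrNK WT was 1 sample (2+4), which was assumed to vary like the cNK samples. In that fit 28 members were called higher and 8 lower (Tlr4, Slpi, Adgre1, C1qa, C1qc, Cd5l, Marco and Timd4), as were 5553 and 5973 of all 19788 genes. Both lower calls of the full set, Tlr4 and Slpi, were lost without any 1 cNK WT sample, and without LrNK WT 1 there were 4 (with Cd5l and Marco).

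The same contrast within the labelled CD8KO groups called 32 of 43 tested members higher and none lower, against 15.4 percent of 17795 genes higher and 11.6 percent lower. The median log2 change was 4.95 over these members and -0.0461 over all genes. By group, 13 of 14 monocyte and macrophage genes, 7 of 11 neutrophil genes, 3 of 9 Kupffer genes, 4 of 4 inflammatory genes, 2 of 2 regulators and 3 of 3 broad genes were called higher. Of the members tested, 4 had 0 counts in cNK labelled CD8KO (Mmp8, Trem1, Clec4f and Cxcl2), F10 had 1 count and F13a1 2 counts, and in the fit of the cNK samples alone 25 members passed the filter. Members that passed through LrNK alone had to differ, so these counts and this median are a description. Leaving out either LrNK sample left 1, assumed to vary like the cNK samples. Without LrNK labelled CD8KO 1, and so with only libraries of many detected genes, 37 members were called higher and 4 lower (Tlr4, Marco, Cd5l and Timd4), as were 5742 and 5130 of all 19586 genes. Without LrNK labelled CD8KO 2+3, 37 were called higher and 3 lower (Tlr4, Marco and Cd5l), and DESeq2 on all samples called Tlr4 and Marco lower, the 2 members that were lower at an unadjusted p under 0.05.

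**Figure D2:**
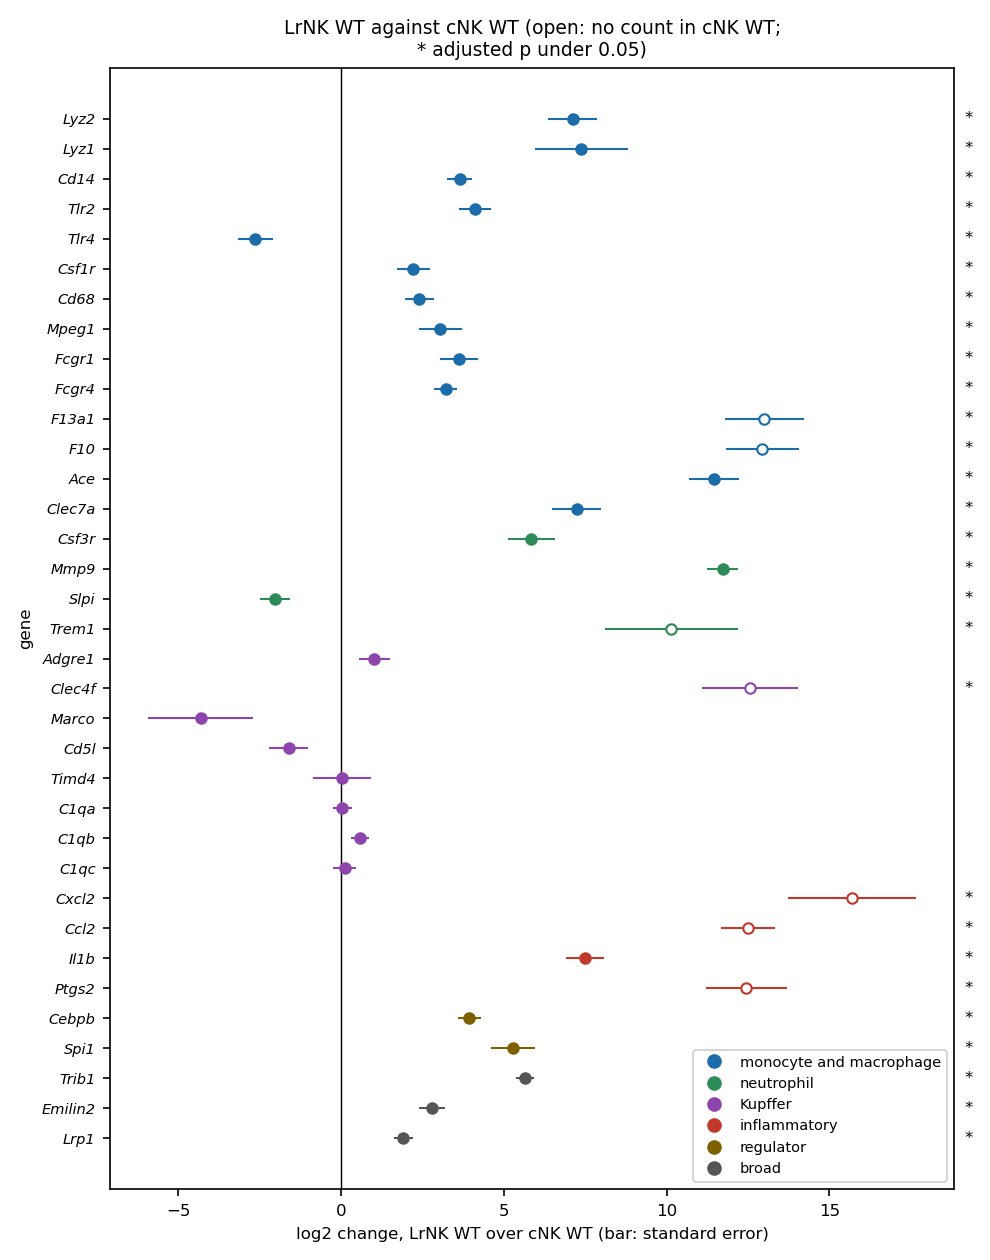
Log2 change of LrNK WT over cNK WT (x axis) with its standard error for the 35 members that were tested (y axis), coloured by group, with an asterisk at an adjusted p under 0.05. Of these, 26 lie right of 0 with an asterisk and Tlr4 and Slpi lie left of 0 with one, while 7 of the 8 purple Kupffer genes have none; open circles have no count in cNK WT, and their position depends on the small number edgeR adds to each count.

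In every LrNK sample the monocyte and macrophage genes took more counts than any other group of the list. They took less than the other groups together in WT 2+4, at 907.8 of 2073 CPM, and more in the other LrNK samples. Their summed level was 3145, 907.8 and 5323 CPM in the WT LrNK samples and 11790 and 3659 CPM in those labelled CD8KO. In cNK it was 190, 146 and 202 CPM in WT and 148, 208 and 206 CPM in labelled CD8KO. Every LrNK sample was above every cNK sample, and within LrNK the labels overlapped. In cNK the Kupffer genes, those shared with splenic macrophages included, took more, at 207, 173 and 225 CPM in WT and 166, 252 and 247 CPM in labelled CD8KO. LrNK labelled CD8KO 1 was the highest LrNK sample for 14 of 14 monocyte and macrophage genes, and LrNK WT 2+4 was the lowest for 14 of 14.

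Lyz2 took the most counts of any member in LrNK, though not in cNK. It was at 1844, 520.3 and 3532 CPM in the WT LrNK samples and 7411 and 1962 CPM in those labelled CD8KO, and at 16.3, 12.02 and 16.1 CPM in the WT cNK samples and 18.9, 15.6 and 14.3 CPM in the labelled CD8KO ones. The LrNK samples did not overlap with the cNK samples, and within LrNK the labels overlapped, since WT 3 was above labelled CD8KO 2+3. LrNK WT exceeded cNK WT by 7.11 ± 0.75 on the log2 scale (SE; edgeR adjusted p = 0.00189), and within labelled CD8KO the log2 change was 8.26 ± 0.63 (adjusted p = 0.00101). Lyz1, its close copy at chr10:117287797-117292868 (GRCm38), next to Lyz2 at chr10:117277331-117282321, was at 8.91, 1.14 and 9.81 CPM in the WT LrNK samples and 19.2 and 4.63 CPM in those labelled CD8KO. Its level is uncertain, because how reads shared by the copies were counted is not known, and it lost its call in LrNK WT without any 1 cNK WT sample (adjusted p = 0.057 to 0.0945).

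Csf1r, the receptor for the growth factor that keeps monocytes and macrophages alive, was at 371, 113 and 558 CPM in the WT LrNK samples and 1118 and 491 CPM in those labelled CD8KO. In cNK it was at 79.9, 60.3 and 92.3 CPM in WT and 58.8, 91.7 and 92.3 CPM in labelled CD8KO. The lowest LrNK sample, WT 2+4, was close above the highest cNK samples. The log2 change of LrNK over cNK was 2.22 ± 0.52 in WT (edgeR adjusted p = 0.0283) and 3.42 ± 0.37 in labelled CD8KO (adjusted p = 0.00272). The WT call was lost without LrNK WT 1 (adjusted p = 0.061) and without any 1 cNK WT sample (0.11 to 0.126). Mpeg1, which encodes the pore-forming perforin-2 of macrophages, was at 456, 66.6 and 479 CPM in the WT LrNK samples and 1510 and 357 CPM in those labelled CD8KO, and at 32.9 to 52.7 CPM over the 6 cNK samples. Cd68, a lysosomal glycoprotein, was at 70.2, 31.8 and 124 CPM in the WT LrNK samples and 194 and 125 CPM in those labelled CD8KO and at 10.9 to 16.8 CPM in cNK. Both were above cNK in every LrNK sample, by 3.05 ± 0.67 and 2.40 ± 0.46 on the log2 scale in WT (edgeR adjusted p = 0.0239 and 0.0151). Without any 1 cNK WT sample both calls were lost (adjusted p = 0.103 to 0.113 for Mpeg1 and 0.0729 to 0.0823 for Cd68), and Mpeg1 also without LrNK WT 1 (0.0535).

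Several genes that circulating monocytes express were at or near 0 in cNK. F13a1, coagulation factor XIII of classical monocytes, was at 25.8, 5.61 and 21 CPM in the WT LrNK samples, 272 and 26.8 CPM in those labelled CD8KO, and 0 counts in all 3 cNK WT samples. In LrNK WT it was at least 975-fold higher than a floor of 3 counts over the cNK WT group. In cNK labelled CD8KO it had 2 counts, and the ratio of the labelled groups was 8040 (95 percent counting interval 2225 to 66400). F10, coagulation factor X, was at 19.7, 6.25 and 24.1 CPM in the WT LrNK samples and 58.5 and 47.5 CPM in those labelled CD8KO and had 0 counts in the WT cNK samples and 1 in the others; the WT LrNK level was at least 938-fold over the same floor. Ace, angiotensin-converting enzyme, which among mouse monocytes is known from the nonclassical ones, was at 110.2, 66.2 and 210.4 CPM in the WT LrNK samples and 566 and 232 CPM in those labelled CD8KO, and at no more than 0.0825 CPM in any cNK sample (log2 change 11.45 ± 0.76 in WT, edgeR adjusted p = 0.000325). Clec7a, the receptor dectin-1 for fungal glucans, was at 117, 26.8 and 165 CPM in the WT LrNK samples and 197 and 133 CPM in those labelled CD8KO and at 0.578 to 1.36 CPM in cNK. Fcgr4 and Fcgr1, the Fc receptors that nonclassical monocytes and macrophages use to bind IgG, were present in both organs. Fcgr4 was at 37.8, 15.03 and 30.1 CPM in the WT LrNK samples and 88.2 and 35.5 CPM in those labelled CD8KO and 1.83 to 3.53 CPM in cNK. Fcgr1 was at 29.3, 10.1 and 50.95 CPM in the WT LrNK samples and 117 and 36.05 CPM in those labelled CD8KO and 1.9 to 3.92 CPM in cNK.

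Of the receptors for microbial products, Cd14 and Tlr2 were higher in LrNK and Tlr4 was not. Cd14, the co-receptor for lipopolysaccharide, was at 25.2, 23.6 and 54.1 CPM in the WT LrNK samples, 112 and 95.4 CPM in those labelled CD8KO, and 2.49 to 3.69 CPM over the cNK samples (log2 change 3.64 ± 0.37 in WT, edgeR adjusted p = 0.00168). Tlr2, which senses bacterial lipoproteins, was at 24.7, 20.5 and 62.1 CPM in the WT LrNK samples and 113 and 108 CPM in those labelled CD8KO and 1.86 to 2.71 CPM in cNK (log2 change 4.11 ± 0.48, adjusted p = 0.00273). Tlr4, the signalling receptor for lipopolysaccharide, was at 5.29, 1.196 and 2.23 CPM in the WT LrNK samples and 10.5 and 4.797 CPM in those labelled CD8KO, below the 15.4 to 20.5 CPM of the 6 cNK samples without overlap. Its log2 change was -2.64 ± 0.54 in WT (edgeR adjusted p = 0.01897) and -1.05 ± 0.33 in labelled CD8KO (adjusted p = 0.0671, not passed). The WT call was lost without any 1 cNK WT sample (adjusted p = 0.0738 to 0.0817).

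**Figure D3:**
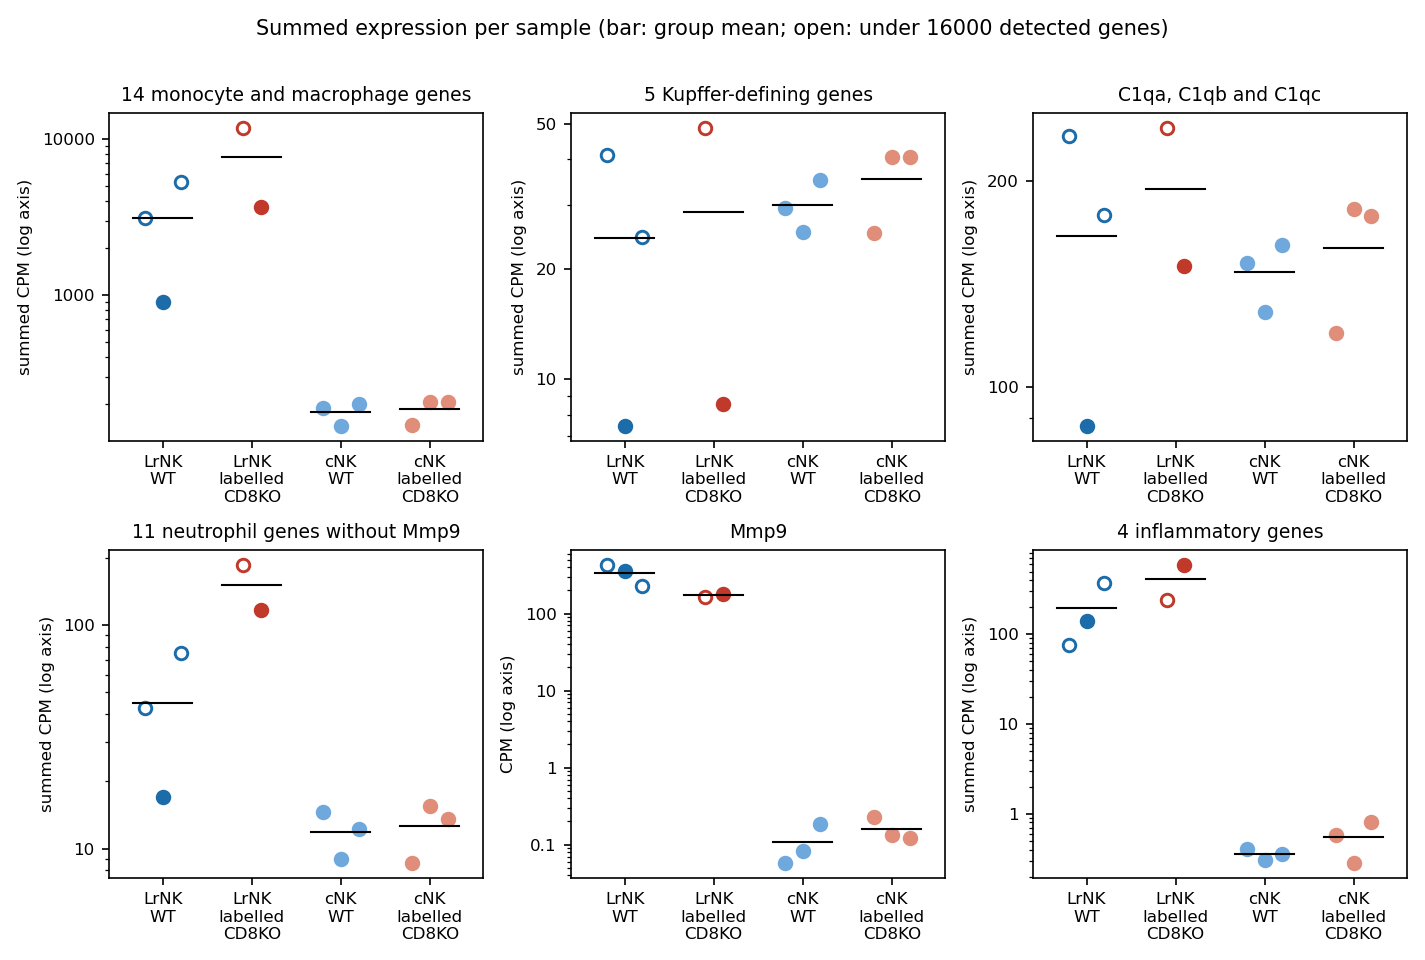
Summed CPM per sample (y axes, log scale) for 5 sets of members and CPM for Mmp9, by group (x axis). Each point is 1 sample, the bar is the group mean and open points have under 16000 detected genes. The monocyte, neutrophil, Mmp9 and inflammatory panels show LrNK above cNK in every sample, and the Kupffer-defining and C1q panels show samples of LrNK on both sides of cNK.

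Of the Kupffer list, Clec4f was read in liver only, while most of the others were read in both organs. Clec4f, a lectin receptor made by Kupffer cells, was at 20.8, 2.87 and 15.2 CPM in the WT LrNK samples and 20.97 and 3.54 CPM in those labelled CD8KO and had 0 counts in all 6 cNK samples. In WT it was at least 708-fold over a floor of 3 counts in the cNK group, and in labelled CD8KO at least 471-fold (edgeR adjusted p = 0.00826 and 0.0148). Without cNK labelled CD8KO 3 the second call was lost (adjusted p = 0.051). Its lowest LrNK samples were the joined pairs, WT 2+4 and labelled CD8KO 2+3, at 2.87 and 3.54 CPM. Summed over the 5 defining markers (Clec4f, Timd4, Vsig4, Cd5l, Marco), the level was 41.3, 7.46 and 24.6 CPM in the WT LrNK samples and 48.7 and 8.53 CPM in those labelled CD8KO. In cNK it was 29.4, 25.2 and 35.2 CPM in WT and 25.1, 40.5 and 40.6 CPM in labelled CD8KO, so LrNK and cNK overlapped. This overlap is of the sum, which joins genes that went opposite ways. Clec4f had 0 counts in cNK, while Cd5l and Marco were higher in every cNK sample than in any LrNK sample. The sum is therefore no measure of genes read in liver only.

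Of the other 4 defining markers, edgeR called none higher in LrNK on all samples; Vsig4 was not tested in WT, and in labelled CD8KO limma voom called it higher (log2 change 4.74, adjusted p = 0.0229) where edgeR did not (4.41 ± 1.41, 0.0709). Cd5l, a scavenger protein that macrophages secrete, was at 15.1, 2.39 and 5.84 CPM in the WT LrNK samples and 17.96 and 3.12 CPM in those labelled CD8KO. In cNK it was at 23.97, 21.2 and 29.2 CPM in WT and 19.2, 32.9 and 32.05 CPM in labelled CD8KO, above every LrNK sample of either label (log2 change -1.62 ± 0.60 in WT, edgeR adjusted p = 0.112). Marco, a scavenger receptor, was at 0.4701, 0.0272 and 0 CPM in the WT LrNK samples and 1.31 and 0.179 CPM in those labelled CD8KO, and at 3.76, 2.31 and 4.24 CPM in the WT cNK samples and 4.403, 4.88 and 5.73 CPM in the labelled CD8KO ones. Again no LrNK sample reached a cNK sample; the log2 change in WT was -4.32 ± 1.60 (adjusted p = 0.112), and without LrNK WT 1 it passed (adjusted p = 0.015). Timd4, a receptor for phosphatidylserine on dying cells, was at 0.611, 0.693 and 3.54 CPM in the WT LrNK samples and 4.07 and 0.481 CPM in those labelled CD8KO and at 1.46 to 2.66 CPM in cNK, with overlap. Vsig4, a complement receptor, was at 4.23, 1.48 and 0 CPM in the WT LrNK samples and 4.43 and 1.21 CPM in those labelled CD8KO and at no more than 0.315 CPM in cNK. Vsig4 had 0 counts in LrNK WT 3, which at this depth allows up to 3 counts.

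Adgre1, which encodes the macrophage antigen F4/80, was at 57.5, 16.7 and 69.5 CPM in the WT LrNK samples and 152 and 54.2 CPM in those labelled CD8KO, and at 19.5 to 29.2 CPM in cNK. LrNK WT 2+4 was below all cNK samples and the other LrNK samples were above them. The log2 change was 1.02 ± 0.46 in WT (edgeR adjusted p = 0.182) and 2.06 ± 0.40 in labelled CD8KO (adjusted p = 0.0173), and the second call was lost without any 1 cNK sample of that label (0.0744 to 0.0858). C1qa, C1qb and C1qc encode the chains of the complement protein C1q and lie side by side on chromosome 4 (C1qb at 136880129-136886187, C1qc at 136889804-136893065, C1qa at 136895917-136898803, GRCm38). Their summed level was 233, 87.8 and 178 CPM in the WT LrNK samples and 239 and 150.2 CPM in those labelled CD8KO. It was 152, 128 and 161 CPM in cNK WT and 120.0, 182 and 178 CPM in cNK labelled CD8KO, so the organs overlapped. C1qb alone was called in 1 contrast, labelled CD8KO LrNK over cNK, with a log2 change of 0.95 ± 0.25 (edgeR adjusted p = 0.0429), and the call was lost without any 1 cNK sample of that label (0.102 to 0.119) and with all 4 groups in 1 fit. C1qa and C1qc were called in neither contrast, with log2 changes of 0.03 ± 0.30 and 0.11 ± 0.36 in WT.

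The proportions among several macrophage genes did not overlap between LrNK and cNK, whichever way the levels themselves went. Within a sample, Lyz2 over Csf1r was 4.97, 4.62 and 6.32 in the WT LrNK samples and 6.63 and 3.998 in those labelled CD8KO, against 0.155 to 0.321 in cNK. Spi1 over Csf1r was 0.366 to 0.477 in LrNK and 0.046 to 0.0534 in cNK. In both ratios every LrNK sample was above every cNK sample. Adgre1 over Csf1r went the other way, at 0.111 to 0.155 in LrNK and 0.307 to 0.36 in cNK. C1qb over Csf1r was 0.23, 0.309 and 0.122 in the WT LrNK samples, 0.0936 and 0.139 in those labelled CD8KO, and 0.523 to 0.624 in cNK. C1qa over C1qb was 0.603 to 0.897 in LrNK and 1.12 to 1.28 in cNK, and Cd5l over C1qb was 0.0457 to 0.178 in LrNK and 0.519 to 0.606 in cNK. Cd68 over Csf1r overlapped, at 0.174 to 0.283 in LrNK and 0.166 to 0.203 in cNK. These are ratios of CPM that share a library, given as a description.

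**Figure D4:**
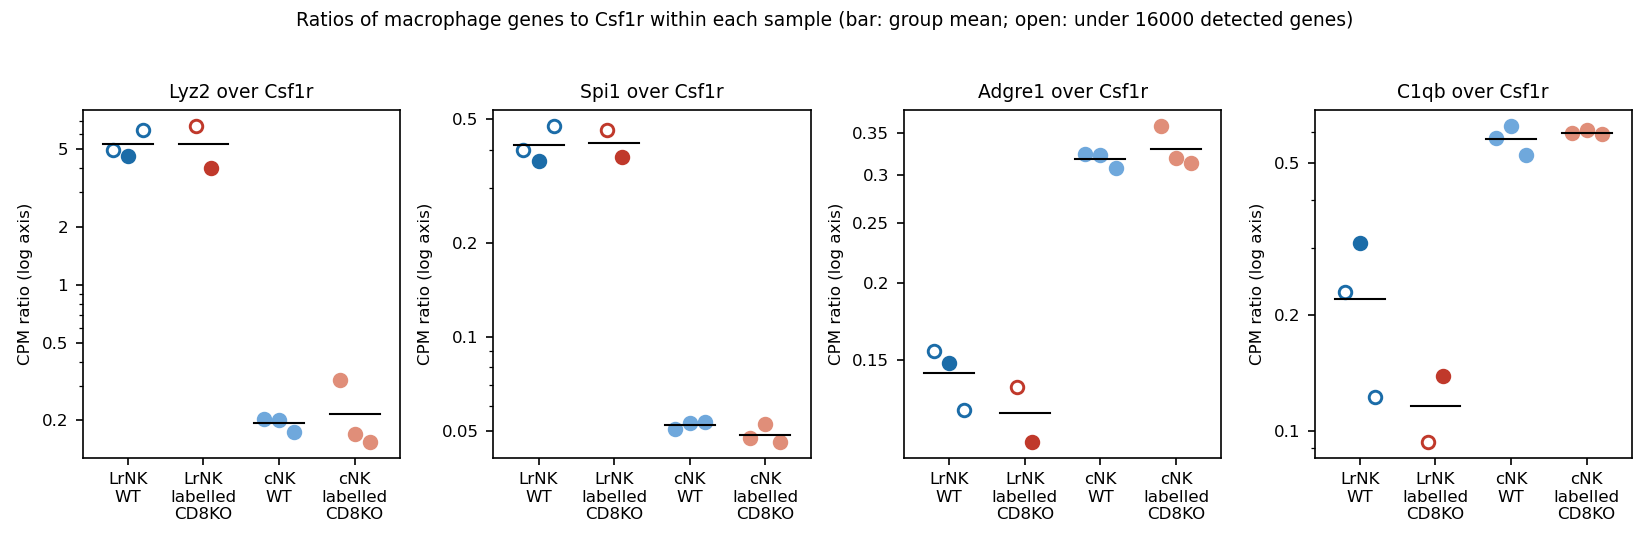
CPM of Lyz2, Spi1, Adgre1 and C1qb divided by the CPM of Csf1r in the same sample (y axes, log scale), by group (x axis), with the group mean as a bar and samples of under 16000 detected genes as open points. The first 2 ratios are higher in all 5 LrNK samples than in all 6 cNK samples, and the last 2 are lower.

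The neutrophil list was low in every sample once Mmp9 was set aside. Mmp9, a matrix metalloprotease of neutrophil granules that lymphocytes and macrophages can also make, was at 423, 356 and 229.9 CPM in the WT LrNK samples and 163 and 180.5 CPM in those labelled CD8KO, and at no more than 0.226 CPM in any cNK sample. It made up 90.8, 95.4 and 75.4 percent of the summed level of the list in the WT LrNK samples, and 46.8 and 60.8 percent in those labelled CD8KO. The log2 change of LrNK over cNK was 11.72 ± 0.48 in WT and 10.19 ± 0.25 in labelled CD8KO (edgeR adjusted p = 7.76e-05 and 9.84e-05). Without Mmp9 the other 11 genes summed to 42.7, 17.0 and 74.9 CPM in the WT LrNK samples, 185 and 116 CPM in those labelled CD8KO, and 8.64 to 15.5 CPM in cNK. Mmp9 was lower in both LrNK samples labelled CD8KO than in all 3 LrNK WT samples, which no other tested member was.

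Csf3r, the receptor for granulocyte colony-stimulating factor, which monocytes also make, was most of the rest. It was at 33.5, 10.8 and 63.4 CPM in the WT LrNK samples, 137 and 64.4 CPM in those labelled CD8KO and 0.44 to 1.03 CPM in cNK (log2 change 5.84 ± 0.73 in WT, edgeR adjusted p = 0.00329). Without Mmp9 and Csf3r, the remaining 10 genes summed to 9.21, 6.1 and 11.6 CPM in LrNK WT, against 8.07 to 14.6 CPM in cNK, and to 48.0 and 51.9 CPM in LrNK labelled CD8KO. The calprotectin genes S100a8 and S100a9 are among the most abundant transcripts of neutrophils. S100a8 was at 0.9402, 0.217 and 0 CPM in the WT LrNK samples and 1.73 and 6.08 CPM in those labelled CD8KO, and S100a9 at 1.998, 0.109 and 6.22 CPM in the WT LrNK samples and 6.82 and 6.11 CPM in those labelled CD8KO. In cNK neither was above 0.28 CPM. Within labelled CD8KO both were called higher in LrNK (edgeR adjusted p = 0.0445 and 0.02104), but S100a8 was not without any 1 cNK sample of that label (0.0738 to 0.172) and S100a9 was not without cNK labelled CD8KO 1 (0.112) or 3 (0.0626). Cxcr2, the receptor that leads mature neutrophils to chemokines, was at 1.34, 0 and 0 CPM in the WT LrNK samples and 1.17 and 0.548 CPM in those labelled CD8KO, and at 0.0374 to 0.218 CPM in cNK.

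Several further genes of the neutrophil list had counts mainly in LrNK labelled CD8KO. Retnlg, resistin-like gamma, and Ltf, lactoferrin, had 0 counts in the 3 LrNK WT samples. In LrNK labelled CD8KO, Retnlg was at 0.613 and 6.21 CPM, at least 238-fold higher than a floor of 3 counts over the WT group. Ltf was at 1.59 and 0.995 CPM, at least 60.2-fold higher. Neither passed the test between the labels (edgeR adjusted p = 1 for each). Camp, cathelicidin, was at 0.514 CPM in LrNK labelled CD8KO 2+3 and had 0 counts in the other 4 LrNK samples, a group level at least 19.0-fold higher than that floor. Mmp8, a collagenase of neutrophil granules, was at 0.799, 0.489 and 0 CPM in the WT LrNK samples and 16.4 and 2.56 CPM in those labelled CD8KO and had 0 counts in all cNK samples. The call within labelled CD8KO (edgeR adjusted p = 0.0167) was lost without any 1 cNK sample of that label (0.051 to 0.0557), as was that of Retnlg (0.0276, against 0.0895 to 0.134). Ngp, neutrophilic granule protein, was at 0, 0.1903 and 0 CPM in the WT LrNK samples and 1.002 and 2.82 CPM in those labelled CD8KO and at 0.0335 to 0.734 CPM in cNK, with overlap. Trem1, a receptor that amplifies inflammation, was at 0.188, 3.13 and 3.66 CPM in the WT LrNK samples and 4.34 and 9.17 CPM in those labelled CD8KO with 0 counts in cNK. Trem1 was called in both contrasts (edgeR adjusted p = 0.0324 and 0.006197), and the WT call was lost without LrNK WT 3 (0.0566) or any 1 cNK WT sample (0.108 to 0.112). Slpi, a secreted inhibitor of leukocyte proteases, had another pattern: it was at 3.95, 1.97 and 1.67 CPM in the WT LrNK samples, 14.3 and 16.9 CPM in those labelled CD8KO, 13.1, 8.21 and 11.5 CPM in the WT cNK samples and 7.55, 14.2 and 10.8 CPM in the labelled CD8KO ones. LrNK WT was thus below cNK WT, with a log2 change of -2.04 ± 0.46 (edgeR adjusted p = 0.0253), a call that was lost without any 1 cNK WT sample (0.0821 to 0.137) and under limma voom, while both LrNK samples labelled CD8KO were above all 6 cNK samples, the lower of them narrowly, without a call against cNK of that label (log2 change 0.65 ± 0.29, edgeR adjusted p = 0.163).

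The inflammatory genes were at or near 0 in cNK, and in LrNK their order over the samples was not that of Lyz2. Cxcl2, a chemokine that draws neutrophils, was at 21.9, 85.8 and 228 CPM in the WT LrNK samples and 88.3 and 354 CPM in those labelled CD8KO with 0 counts in all 6 cNK samples, at least 6766-fold over the floor of the cNK group in WT and at least 15350-fold in labelled CD8KO. Il1b, interleukin 1 beta, was at 34.97, 39.5 and 108 CPM in the WT LrNK samples and 109 and 162 CPM in those labelled CD8KO and 0.251 to 0.699 CPM in cNK (log2 change 7.48 ± 0.58 in WT, edgeR adjusted p = 0.000643). Ptgs2, the inducible cyclooxygenase, was at 8.67, 5.14 and 21.9 CPM in the WT LrNK samples and 27.5 and 52.6 CPM in those labelled CD8KO and at no more than 0.0411 CPM in cNK. Ccl2, a chemokine that draws monocytes, was at 9.57, 9.61 and 17.1 CPM in the WT LrNK samples and 15.7 and 18.7 CPM in those labelled CD8KO, with 0 counts in 5 cNK samples and 0.105 CPM in cNK labelled CD8KO 3. LrNK labelled CD8KO 2+3 was the highest LrNK sample for 4 of 4 of these genes, though LrNK labelled CD8KO 1 had more of every monocyte and macrophage gene. Cxcl2 over Lyz2 was 0.0119 in both LrNK WT 1 and LrNK labelled CD8KO 1, 0.0646 in LrNK WT 3, and 0.165 and 0.181 in the joined pairs WT 2+4 and labelled CD8KO 2+3. The joined pairs were also those with many detected genes, and the part of that in these ratios was not tested.

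Spi1 encodes PU.1, the factor that myeloid cells need to form, and Cebpb encodes C/EBP beta, which acts in monocytes, macrophages and activated cells of many kinds. Spi1 was at 147, 41.2 and 266 CPM in the WT LrNK samples, 517 and 186 CPM in those labelled CD8KO, 4.03, 3.18 and 4.93 CPM in the WT cNK samples and 2.78, 4.79 and 4.25 CPM in the labelled CD8KO ones. Cebpb was at 231, 324 and 594 CPM in the WT LrNK samples, 804 and 515 CPM in those labelled CD8KO, and 24.1 to 28.9 CPM in cNK. Both were above cNK in every LrNK sample, by 5.28 ± 0.68 and 3.94 ± 0.36 on the log2 scale in WT (edgeR adjusted p = 0.00379 and 0.0011). To show what the DNA before these genes holds, the 250 bases before the start of transcription were searched on both strands in RefSeq sequence of GRCm38.p6, with GAGGAAGT for PU.1, TTGCGCAA for C/EBP and a consensus motif for NF-kB. No gene held matches of more than 1 motif. Of the 44 genes, 35 had an entry. The PU.1 letters were found before 4 of the 35 (Fcgr4, S100a8, C1qc and Mmp8), against 2.79 percent of 27025 genes with an entry. The C/EBP letters were found before 1, Ptgs2, against 0.185 percent of all genes, and the NF-kB motif before none, against 0.159 percent. Below are 60 bases around each PU.1 match, read 5′ to 3′ on the strand of the gene. The capitals mark the match, which lies on the opposite strand in all 4 and so reads as its reverse complement.
Fcgr4, chr1:171018866-171018925, + strand: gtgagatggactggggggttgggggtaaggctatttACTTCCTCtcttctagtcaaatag
S100a8, chr3:90668873-90668932, + strand: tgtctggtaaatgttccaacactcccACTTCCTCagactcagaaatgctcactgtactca
C1qc, chr4:136893076-136893135, - strand: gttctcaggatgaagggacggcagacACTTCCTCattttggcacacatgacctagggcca
Mmp8, chr9:7558182-7558241, + strand: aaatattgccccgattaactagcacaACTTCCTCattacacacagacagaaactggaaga
Counted from the start in the RefSeq table, the matches began 24 bases before Fcgr4, 172 before S100a8, 195 before C1qc and 221 before Mmp8. For C1qc that start lies inside the GENCODE gene given above, so the match is nearer to the GENCODE start. These 4 genes did not move as 1 set: Fcgr4 was higher in every LrNK sample, C1qc overlapped between LrNK and cNK, and S100a8 and Mmp8 were low in the WT LrNK samples and higher in those labelled CD8KO. A match of letters is not a bound site.

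The broad genes Trib1, Emilin2 and Lrp1 were higher in LrNK in both contrasts. Trib1, a pseudokinase that guides the breakdown of C/EBP alpha, was at 48.4, 40.8 and 74.5 CPM in the WT LrNK samples, 174 and 184 CPM in those labelled CD8KO and 0.926 to 1.63 CPM in cNK (log2 change 5.64 ± 0.28 in WT, edgeR adjusted p = 0.000127). Emilin2, a glycoprotein of the extracellular matrix, was at 78.2, 42.1 and 133 CPM in the WT LrNK samples, 558 and 216 CPM in those labelled CD8KO, 12.1, 14.7 and 11.4 CPM in the WT cNK samples and 15, 20.5 and 20.04 CPM in the labelled CD8KO ones. Lrp1, an endocytic receptor of macrophages, fibroblasts and hepatocytes, was at 199, 92.1 and 182 CPM in the WT LrNK samples, 882 and 448 CPM in those labelled CD8KO, and 33.1 to 65.6 CPM in cNK. In LrNK, each of the 3 was higher in both labelled CD8KO samples than in all WT samples.

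The label comparison within LrNK asked whether these transcripts differ between the CD8KO and WT labels. Myeloid genes stood higher in the labelled CD8KO samples by level, but no member passed the test. With edgeR on the LrNK samples alone, 0 of 43 tested members were called higher and 0 lower, as were 0 percent of the 16504 genes in each direction. At an unadjusted p under 0.05 stood 15 members and 615 of all genes. The biological coefficient of variation was 98.2 percent in this fit, against 9.6 percent between the cNK samples. The median log2 change was 1.27 over the members tested and 0.0181 over all genes, with 41 of 43 members above 0. It was 1.39 for the monocyte and macrophage genes, 2.66 for the neutrophil genes, 0.469 for the Kupffer genes and 1.11 for the inflammatory genes. Retnlg and Ltf had 0 counts in LrNK WT, and Ngp had counts in WT 2+4 only. These genes passed the filter through labelled CD8KO alone and had to be higher, so the medians and the 41 of 43 are a description. The neutrophil median was still 2.66 with Retnlg and Ltf at the lower bound of their fold.

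Both LrNK labelled CD8KO samples were above all 3 LrNK WT samples for 19 of 43 members (44.2 percent), against 9.84 percent of all genes tested. Mmp9 was the 1 member below in both, against 8.47 percent of all genes. The 19 include Retnlg, Ltf and Ngp, which passed the filter through labelled CD8KO alone and had to be higher. When the 4 groups were fitted together and shared 1 estimate of the spread, 5 members were called higher (11.6 percent), against 0.539 percent of 19287 genes, and none lower, against 0.176 percent. They were Cd14 (log2 change 1.64 ± 0.30, adjusted p = 0.04796), Slpi (2.68 ± 0.41, 0.02399), Trib1 (1.77 ± 0.24, 0.0177), Emilin2 (2.24 ± 0.43, 0.0493) and Lrp1 (2.12 ± 0.36, 0.0364). DESeq2 called the same 5 members higher and limma voom called none. These names were on the list with earlier results of these libraries known and are no independent evidence of direction.

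Compared within the samples of few detected genes (WT 1 and WT 3 against labelled CD8KO 1), and within those of many (WT 2+4 against labelled CD8KO 2+3), the same direction recurred. Of 43 members, 35 were higher in labelled CD8KO in both comparisons (81.4 percent), against 21.7 percent of all genes tested. Only Mmp9 was lower in both, against 17.1 percent. Among the 35 were again Retnlg, Ltf and Ngp, which had to be higher. By group, 14 of 14 monocyte and macrophage genes, 9 of 11 neutrophil genes, 5 of 9 Kupffer genes, 2 of 4 inflammatory genes, 2 of 2 regulators and 3 of 3 broad genes were higher in both. Lyz2 was 2.76-fold higher among the samples of few detected genes and 3.77-fold among those of many, Csf1r 2.41-fold and 4.36-fold, and Trib1 2.84-fold and 4.51-fold. Clec4f was 1.16-fold and 1.24-fold higher, and Mmp9 was at 0.498 and 0.507 of its WT level. The summed neutrophil genes without Mmp9 were 3.15-fold and 6.86-fold higher, and the 5 Kupffer-defining genes 1.48-fold and 1.14-fold. With 1 labelled CD8KO sample in each comparison, these folds have no test. On all LrNK samples, edgeR with the set of detected genes as a term called 0 members in either direction.

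The LrNK samples labelled CD8KO differed in which members stood highest. Each is a single sample, and they also differ in their number of detected genes, the part of which was not tested. F13a1 over Csf1r was 0.244 in labelled CD8KO 1 and 0.0376 to 0.0695 in the other 4 LrNK samples, and F13a1 itself was at 272 CPM there against 5.61 to 26.8 CPM. Mmp8 was at 16.4 CPM there against 0 to 2.56 CPM. Labelled CD8KO 2+3 instead led for Retnlg, S100a8, Ngp, Camp and Slpi and for the 4 inflammatory genes. Over all 44 members, labelled CD8KO 1 was the highest LrNK sample for 29, labelled CD8KO 2+3 for 11 and WT 1 for 4, while WT 2+4 was the lowest for 28.

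**Figure D5:**
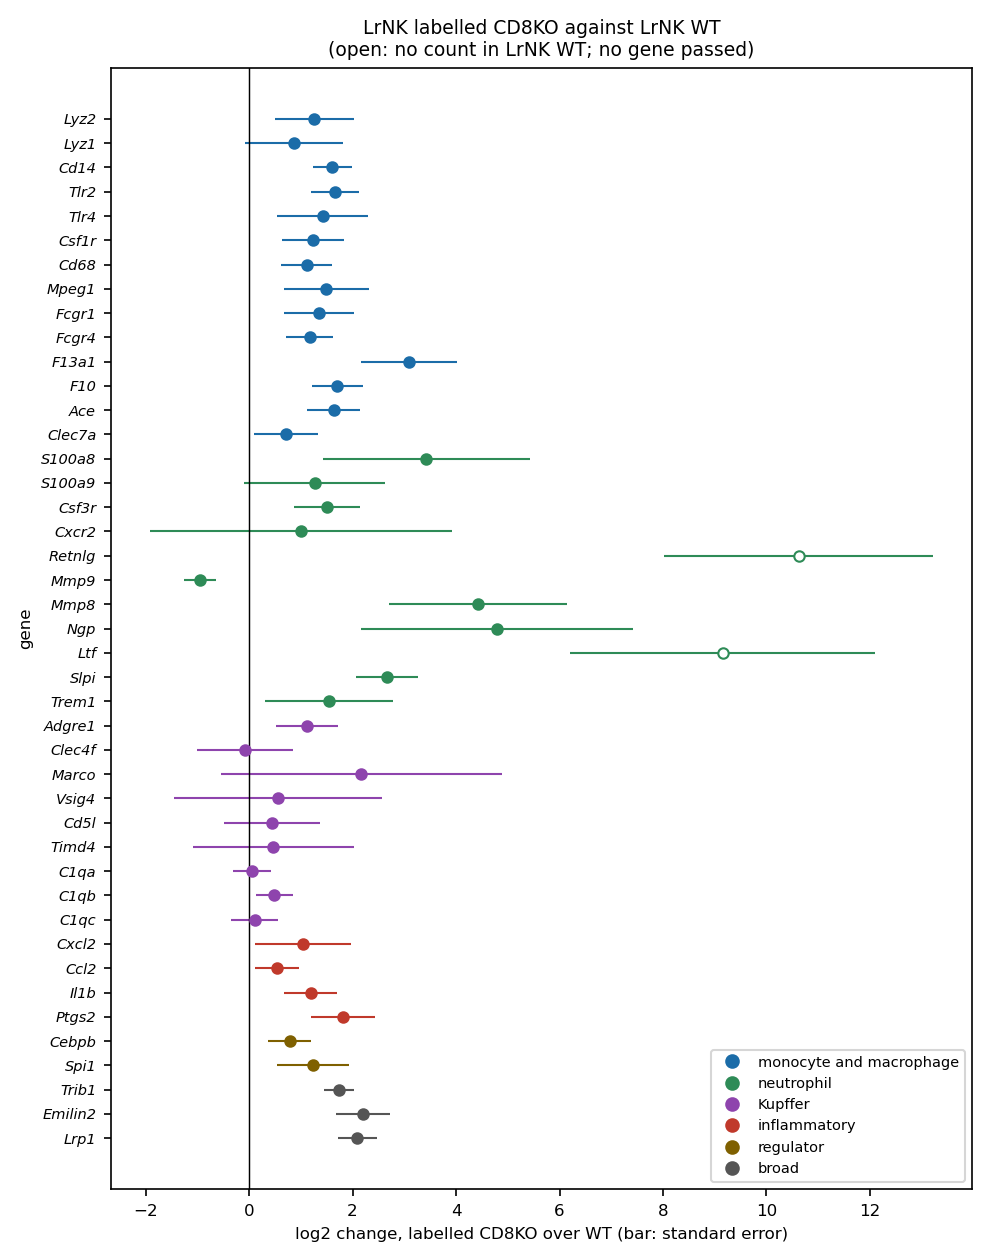
Log2 change of LrNK labelled CD8KO over LrNK WT (x axis) with its standard error for the 43 members tested (y axis), coloured by group; no gene passed an adjusted p of 0.05. Of these points 41 lie right of 0, Mmp9 lies left at -0.95 and Clec4f at -0.08, and the median of the Kupffer genes, 0.469, is the lowest of the groups; open circles have no count in LrNK WT, and their position depends on the small number edgeR adds.

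Other cells' markers also differed between LrNK samples. The 6 NK genes (Ncr1, Klrb1c, Klrk1, Prf1, Gzma, Eomes) summed to 5104 to 6179 CPM in the WT LrNK samples, 2600.0 and 2639 CPM in those labelled CD8KO, and 10150 to 11390 CPM in cNK, with 0 of 6 called between the LrNK labels by edgeR on the LrNK samples alone. Gzma, granzyme A, was the largest part of that difference, at 3043 to 3792 CPM against 909 and 1074 CPM. The 6 erythroid genes summed to 259, 134 and 938 CPM in the WT LrNK samples, 272 and 2818 CPM in those labelled CD8KO, and no more than 4.89 CPM in cNK. Markers of dendritic cells, a further myeloid type, were higher in LrNK as a sum, though not gene by gene. The 6 dendritic cell genes summed to 65.8, 29.8 and 111 CPM in the WT LrNK samples, 140 and 56.9 CPM in those labelled CD8KO, and 7.42 to 10.1 CPM in cNK. Cd209a was the largest part of the sum in LrNK, at 13.6 to 85.0 CPM over the libraries. Zbtb46 overlapped, at 3.64 to 9.05 CPM in the LrNK libraries and 6.76 to 9.34 CPM in cNK. Between LrNK WT and cNK WT, edgeR called 3 of the 6 higher (Clec9a, Flt3 and Cd209a) and 0 lower. Of all genes tested, 10.9 percent rose and 9.83 percent fell. These 3 genes did not pass the filter in the fit of the cNK samples alone. They passed through LrNK alone and had to differ, so their calls are a description. The 6 hepatocyte genes summed to 16.8 to 52.0 CPM in LrNK and at most 0.168 CPM in cNK. B cell genes summed to 234 to 394 CPM in LrNK and 169 to 226 CPM in cNK, T cell genes to 162 to 223 CPM and 24.9 to 34.7 CPM, endothelial genes to 87.6 to 136 CPM and 97.5 to 111 CPM, and platelet genes to 2.45 to 6.45 CPM and 3.63 to 4.4 CPM. Between the LrNK labels, edgeR on the LrNK samples alone called none of the genes of these 8 lists, and with all 4 groups in 1 fit it called Gzma lower (log2 change -1.73 ± 0.17, adjusted p = 0.0029) and no other. The part of these cells in the myeloid levels was not tested.

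Within cNK, no member was called between the labels. With edgeR on the 6 cNK samples, 0 of 25 tested members were called higher and 0 lower, against 0.499 percent of 16619 genes higher and 0.812 percent lower. At an unadjusted p under 0.05 stood 2 of these 25 members, both higher, and 2140 of all 16619 genes, so the members did not exceed the share of all genes. The median log2 change was 0.134 over these members and -0.00164 over all genes. The member nearest to the threshold was Emilin2, with a log2 change of 0.53 ± 0.12 (SE) and an adjusted p of 0.0522, and Marco followed with 0.54 ± 0.20 and 0.238. Emilin2 was called without cNK WT 2, without cNK labelled CD8KO 1, and by DESeq2. Csf1r lay between 58.8 and 92.3 CPM over the 6 samples, Lyz2 between 12.02 and 18.9 CPM and C1qb between 35.1 and 55.7 CPM.

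The difference between the label's effect in LrNK and in cNK was tested as an interaction over all 4 groups. No member passed, 0 of 43 in either direction, against 0.00518 percent of 19287 genes higher and 0.0363 percent lower. At an unadjusted p under 0.05 stood 8 members higher and 1 lower, and 1628 of all 19287 genes. Slpi, with 2.70 ± 0.55 on the log2 scale (SE; edgeR adjusted p = 0.199), and Trib1, with 1.64 ± 0.35 (adjusted p = 0.223), were nearest. DESeq2 called 3 members higher (Lrp1, Slpi and Trib1). Without LrNK WT 3 there were 3 (Cd14, Tlr2 and Trib1), without LrNK WT 2+4 there was 1 (Slpi), and with the set of detected genes as a term there were 4 (Adgre1, Emilin2, Lrp1 and Mpeg1).

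Other myeloid genes, taken as lists of 12 for each cell type that hold none of the 44, were counted in the same way for LrNK WT over cNK WT. Of the monocyte and macrophage list 12 were tested, 8 rose and 1 fell, with Fn1, fibronectin, at a log2 change of 10.45 ± 1.06 (edgeR adjusted p = 0.001599) and Cd300e, a monocyte receptor, at 2.57 ± 0.33 (0.00379). The gene that fell was Ly6c2, a surface antigen of classical monocytes that lymphocytes also make, with a log2 change of -1.73 ± 0.35 (edgeR adjusted p = 0.0178). Ccr2, the chemokine receptor of classical monocytes, was also lower in every LrNK WT sample than in cNK WT, at -1.26 ± 0.46, without a call by edgeR (adjusted p = 0.106) and with one by limma voom (0.0045). Ly6c2 and Ccr2 are named after their values were seen. Of the neutrophil list 5 were tested, 2 rose (Clec4d and Hdc) and none fell. Of the Kupffer list 11 were tested, 3 rose and 2 fell: Slc11a1, an ion transporter of phagosomes, rose by 2.44 ± 0.35, and Slc40a1, the iron exporter ferroportin, fell with a log2 change of -3.53 ± 0.56 (adjusted p = 0.00533 and 0.00802). The median log2 changes were 2.68, 2.88 and -1.20. Of all genes tested, 10.9 percent rose and 9.83 percent fell. Among the genes that rose, Chil3, Fn1 and Clec4d did not pass the filter in the fit of the cNK samples alone. They passed through LrNK alone and had to differ. Their calls and p-values, and the medians of their lists, are therefore a description. Between the LrNK labels none of the 12, 9 and 11 tested genes of these lists was called, and 12, 8 and 9 of them were above 0. These lists too were written with earlier results of the data known.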

How the data were processed

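The input was 1 table of raw gene counts per library, 13 tables as the authors deposited them, with 54532 gene identifiers each. Alignment was with HISAT2 2.1.0 to GRCm38, per the submitters' processing notes. Which tool and annotation gave the counts, and whether strand was used, is not given in the sources used here, so overlapping genes and close copies such as Lyz1 and Lyz2 may share reads. GENCODE M21 gave a symbol and position to 54495 of them. Groups came from the cell type and genotype labels. Libraries with a chi-square per degree of freedom under 4 between them were summed.

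CPM was taken over a library's total count. Each contrast was fitted with edgeR 4.0.16 (R 4.3.3) on the groups compared, with TMM scaling, filterByExpr (minimum count 10, total 15), the quasi-likelihood test and Benjamini-Hochberg adjustment over all genes tested; the interaction used all 4 groups. Of the comparisons, 5 were made. Calls needed an adjusted p below 0.05. A log2 change is followed by its standard error. Of low counts (1 to 20), 49.5 to 65.2 percent per library were even. Whether 1 count is 1 fragment is not known, so floors of 3 counts and 95 percent intervals, which assume it and cover counting error only, may be too narrow. Alternatives were RLE scaling, no filter, DESeq2 1.42.0, limma 3.58.1 voom with group weights, all groups in 1 fit, every library as its own sample, the replicate number as a block, each sample left out, and, added after seeing the data, the set of detected genes (limit 16000). The fits other than the interaction were tested on simulated data with 100 genes changed 2-fold and 100 changed 4-fold. Of these, 0 and 36 percent were called for LrNK by label and 73 and 96 percent for cNK by label. For LrNK over cNK, 6 and 38 percent were called in WT and 9 and 41 percent in labelled CD8KO. The 44 genes and all lists were chosen with earlier results of these data known. Every member is accounted for; values by sample are given for defining markers, called members and the most abundant of each group, and other genes only as counts with up to 3 examples per list.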

Additional observations from a re-analysis of the deposited data

How the results depend on the processing

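For LrNK by label, against 0 members called higher and 0 of all genes, 21 members (240 genes) were called with no filter on low counts, 5 (41) with DESeq2, 5 (104) with all 4 groups in 1 fit, 1 (14) with every library its own sample and 17 (168) with the replicate number as a block; RLE scaling, voom and each sample left out gave 0. For LrNK by label, the set of detected genes as a term also gave 0 members and 0 of 16504 genes in each direction. For cNK by label, against 0 members, 1 (Emilin2) was called with no filter, with DESeq2 and with the replicate block, and 0 to 1 with each sample left out. For LrNK WT over cNK WT, against 2 members called lower, DESeq2 gave 4, the replicate block 1, only libraries with many detected genes 8, and leaving out each sample 0 to 4. Higher calls there ranged from 20 to 29 with each sample left out, and were 24 under the replicate block. For LrNK over cNK within labelled CD8KO, against 0 lower, 2 were called with no filter, 2 with DESeq2, 2 with every library its own sample, 4 with only libraries of many detected genes, and 0 to 4 with each sample left out. For the interaction, against 0 higher, DESeq2 gave 3, every library its own sample 2, the set of detected genes as a term 4, and leaving out each sample 0 to 3. The cause of these differences was not tested.

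The replicate numbers were not shown to pair the samples: same-numbered cNK samples had correlations of 0.0147 to 0.0468 between their deviations from the group means. The summed LrNK groups share only numbers 1 and 2, with correlations of 0.3 and 0.494, too few pairs to tell. Where leaving out a sample left LrNK labelled CD8KO with 1 sample, or only libraries of many detected genes left LrNK with 1, that sample was assumed to vary like the other group. No alternative turned the direction of a called member. Single genes kept their side of the threshold in 391 of 416 alternative fits within labelled CD8KO, 372 of 406 for LrNK WT over cNK WT and 46 of 65 for LrNK by label. The LrNK label comparison had the widest spread, a biological coefficient of variation of 98.2 percent against 9.6 to 63.7 percent in the other fits. A count of 0 over a group allows a level of up to 3 counts, which is 0.0154 to 0.0239 CPM.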
